A study of Homo sapiens with 8 samples.

Results

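The ATF4 stress-response genes examined here were ATF4, ATF5, DDIT3, DDIT4, ASNS, TRIB3, CHAC1, PSAT1, PHGDH and SESN2. Members were taken by gene name, with earlier results of these data known, and each of the 10 names matched 1 row of the 60282 genes in the count table. RNA-seq was performed on SK-UT-1 cells, a long-established line derived from uterine leiomyosarcoma (uLMS), a malignant smooth muscle tumor of the human uterus. The treated group received 5 µM TP-472 for 48 h (4 libraries). TP-472 is a small-molecule inhibitor of the bromodomain proteins BRD9 and BRD7, which are subunits of chromatin-remodeling BAF complexes. The control group received the DMSO vehicle (4 libraries), and the sample descriptions list no genetic change in either group. Total counts ran from 32574716 to 36634184 per vehicle library and from 36246466 to 38545695 per TP-472 library. The paper states for all its experiments that biological replicates were used. The sample descriptions number the replicates but do not say whether they were separate cultures, so p-values measure the spread between these libraries.

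Markers were read to check the labelled cell type. Levels are given as CPM, the counts of a gene relative to the size of its library after scaling by edgeR's TMM method. Of 8 smooth muscle genes, 6 had a mean over 1 CPM, led by CALD1, and the sum over the 8 was 438 to 520 CPM in vehicle and 370 to 379 CPM in TP-472 libraries. The mature contractile genes MYH11 and ACTG2 were near zero, with at most 10 and 5 counts in any library. MYH11 had 0 or 1 count in vehicle libraries and 7 to 10 in TP-472 libraries. DES, a muscle intermediate filament, averaged 3.25 ± 0.203 CPM with vehicle and 0.629 ± 0.169 CPM with TP-472 (SD, 4 libraries each). Means with vehicle and TP-472 were 160 and 109 CPM for ACTA2, 32.3 and 20.3 for TAGLN, and 81.5 and 51 for SMTN. They were 200 and 192 CPM for CALD1 and 1.26 and 1.38 CPM for CNN1. The groups overlapped for SMTN, CALD1 and CNN1. The defining leukocyte genes PTPRC and CD3E were at 0 or 1 count in every library, and the sum of 3 leukocyte genes, 6.68 to 7.9 CPM in vehicle and 8.93 to 12.2 CPM in TP-472 libraries, came from CD68. The sum of 3 endothelial genes was at most 0.144 CPM in vehicle and 0.581 CPM in TP-472 libraries. The sum of 4 epithelial genes, led by KRT18, was 8.84 to 11.7 CPM in vehicle and 16.9 to 20.7 CPM in TP-472 libraries. KRT18 itself averaged 7.39 CPM with vehicle and 15.6 CPM with TP-472, while the defining epithelial genes EPCAM (0.731 and 0.245 CPM) and CDH1 (0.417 and 0.415 CPM) stayed under 1 CPM on average, EPCAM with lower values in every TP-472 library. The part of these marker differences in the results was not tested.

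Cells under amino acid shortage, endoplasmic reticulum (ER) stress, viral RNA or heme shortage phosphorylate the translation factor eIF2, which lowers general protein synthesis while the mRNA of the transcription factor ATF4 is translated more. ATF4 then switches on genes for amino acid synthesis and import, regulators of cell death, and inhibitors of its own pathway. Since ATF4 is controlled largely at translation, the level of its mRNA does not give the level of its protein, and no protein was measured in these data. ATF4 binds DNA together with C/EBP factors at the C/EBP-ATF response element.

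The core of this element, TGATGNAA on either strand, was searched in the RefSeq promoters on GRCh38.p14 (250 bases before to 50 after each start), because it is the sequence through which ATF4 is known to act. All 10 genes matched the table, with 17 promoters between them, and 2 of these promoters, 1 each of ASNS and CHAC1, held the core. Among all 35116 promoters of the same length, 3.62% held it. The cAMP response element TGACGTCA (1.85% of all promoters) and the longer ER stress element (0.0769% of all promoters) were in none of the 17. A promoter without these letters can hold them outside the window. The sequences around both matches are shown 5′ to 3′ on the strand of the gene, with the core in capitals; the core of CHAC1 lies on the opposite strand and appears as its reverse complement.
ASNS, chr7:97872458-97872487, minus strand: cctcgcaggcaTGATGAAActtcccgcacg
CHAC1, chr15:40953251-40953280, plus strand: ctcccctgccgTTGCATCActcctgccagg
The first base of the core lies at −68 from an ASNS start and at −209 from the CHAC1 start. In GENCODE release 29, exons of 4 of the 17 ASNS transcripts and of 2 of the 5 CHAC1 transcripts overlap these windows.

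After TP-472 treatment none of the 10 genes passed the threshold for differential expression in the main test, which used all 8 libraries without a GC correction. A gene was said to have risen or fallen when edgeR's quasi-likelihood test gave a Benjamini-Hochberg adjusted p below 0.05 together with more than a 1.5-fold difference. The adjustment covered the 14073 genes that exceeded 1 CPM in 4 or more of the libraries. All 10 genes passed this filter, and 0 of the 10 were differentially expressed, against 26.9% of all genes tested (12% higher and 14.9% lower). At an unadjusted p-value under 0.05, 4 of the 10 passed, against 47.8% of all genes tested. DESeq2's Wald test and limma-voom also called 0 of the 10, against 23.8% and 26% of the genes they tested. With sample quality weights limma-voom called 3 of the 10, against 24.8% of all genes. When the limit on the fold change was set aside, ATF4 and DDIT3 were higher and PHGDH lower with TP-472 (3 of the 10, against 36.3% of all genes tested). The same 3 genes showed no overlap between the groups (2 higher, against 23.8% of all genes tested, and 1 lower, against 21.6%), and 45.4% of all genes tested separated in either direction. The median log2 fold change was 0.17 over the 10 genes and −0.026 over all genes tested. In bulk RNA, fewer cells of a kind and less RNA per cell cannot be told apart.

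**Figure D1:**
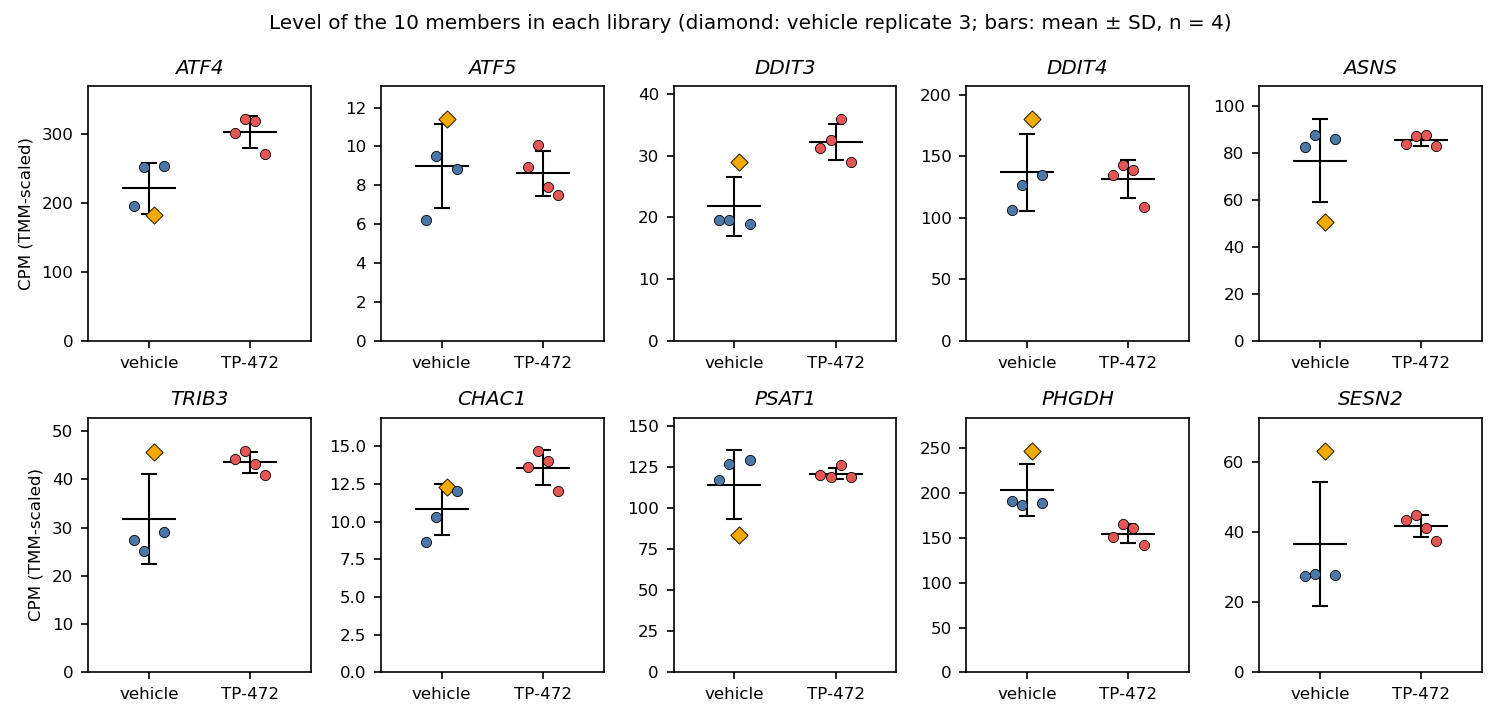
Level of each gene in CPM (vertical axes, starting at 0) in the 4 vehicle and the 4 TP-472 libraries, with points for libraries, a diamond for vehicle replicate 3, and lines for the mean ± SD. Vehicle replicate 3 is the highest or the lowest vehicle library for all 10 genes, and only ATF4, DDIT3 and PHGDH separate the groups completely.

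ATF4 (ENSG00000128272.14; chromosome 22 from 39519695 to 39522685 on GRCh38) encodes the transcription factor at the center of the response. Its level was 196, 252, 183 and 254 CPM in vehicle replicates 1 to 4 and 301, 321, 318 and 271 CPM in TP-472 replicates 1 to 4. Every TP-472 library lay above every vehicle library, although TP-472 replicate 4 exceeded the highest vehicle library by little. The means were 221 ± 36.9 CPM and 303 ± 23.0 CPM (SD, 4 libraries each), which is 1.37-fold higher with TP-472 (log2 fold change 0.45, standard error (SE) 0.137, adjusted p = 0.0313). An exact permutation test, two-sided, gave p = 0.0286, which is the lowest value possible with 4 libraries in each group. Without vehicle replicate 3 the log2 fold change was 0.37 (adjusted p = 0.0124).

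DDIT3 (ENSG00000175197.12; chromosome 12 from 57516588 to 57521737) encodes CHOP, a C/EBP-family factor linked to cell death under prolonged ER stress. Vehicle replicates 1 to 4 had 19.6, 19.6, 29 and 19 CPM, and TP-472 replicates 1 to 4 had 31.3, 32.6, 35.9 and 29 CPM. The groups did not overlap, but vehicle replicate 3 reached almost the level of TP-472 replicate 4, while the other vehicle libraries lay close together. DDIT3 averaged 21.8 ± 4.79 CPM with vehicle and 32.2 ± 2.86 CPM with TP-472 (SD, 4 libraries each), a 1.48-fold difference just under the limit (log2 fold change 0.56, SE 0.159, adjusted p = 0.0241; two-sided exact permutation test, p = 0.0286). DDIT3 passed both limits in the fit without vehicle replicate 3 (log2 fold change 0.73, adjusted p = 7.34e-05) and in that without TP-472 replicate 4 (0.61, adjusted p = 0.0379). Over the fits without any 1 library its adjusted p-value ran from 7.34e-05 to 0.0743. DDIT3 shares part of its locus with MARS1, which held 4821 to 7610 counts per library. MARS1 lies on the opposite strand, and the libraries were strand-specific.

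ATF5 (ENSG00000169136.11; chromosome 19 from 49928702 to 49933935), a related bZIP factor whose mRNA is also translated under stress, was the lowest of the 10 genes per length of transcript. Its level was 6.23, 9.51, 11.4 and 8.85 CPM in vehicle replicates 1 to 4 and 8.93, 10.1, 7.94 and 7.48 CPM in TP-472 replicates 1 to 4. The groups overlapped throughout. ATF5 had a log2 fold change of −0.06 (SE 0.196, adjusted p = 0.813), and of 0.07 without vehicle replicate 3 (adjusted p = 0.735). ATF5 was at 0.31 (adjusted p = 0.184) with all libraries once the trend of each library with GC content was removed. It shares part of its locus with NUP62, which held 2960 to 6913 counts per library and lies on the opposite strand; the libraries were strand-specific.

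TRIB3 (ENSG00000101255.11; chromosome 20 from 362835 to 397559), a pseudokinase that is induced by ATF4 and CHOP and restrains them, was measured at 27.5, 25.2, 45.6 and 29 CPM in vehicle replicates 1 to 4. TP-472 replicates 1 to 4 had 44.1, 45.9, 43.1 and 40.8 CPM. Vehicle replicate 3 lay among the TP-472 libraries, and the other vehicle libraries were all below them. With all 8 libraries TRIB3 was at a log2 fold change of 0.45 (SE 0.184, adjusted p = 0.0837; two-sided exact permutation test, p = 0.114). Without vehicle replicate 3, TRIB3 passed the threshold at 0.67 (adjusted p = 5.54e-05).

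SESN2 (ENSG00000130766.5; chromosome 1 from 28259527 to 28282491) encodes Sestrin2, a leucine sensor that restrains mTORC1. It had 27.4, 27.9, 63.1 and 27.8 CPM in vehicle replicates 1 to 4 and 43.3, 44.8, 41.1 and 37.4 CPM in TP-472 replicates 1 to 4. Vehicle replicate 3 was above all other libraries of either group, and 2.28-fold above the mean of the other vehicle libraries, which was 27.7 ± 0.264 CPM. With all 8 libraries SESN2 was at a log2 fold change of 0.19 (SE 0.273, adjusted p = 0.604). Without that library SESN2 passed the threshold at 0.59 (SE 0.0735, adjusted p = 0.00014), which is barely over the limit on the fold change.

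CHAC1 (ENSG00000128965.13; chromosome 15 from 40952962 to 40956519), an enzyme that degrades glutathione and carries the response element core shown above, had 8.67, 10.3, 12.3 and 12 CPM in vehicle replicates 1 to 4. TP-472 replicates 1 to 4 had 13.6, 14.7, 14 and 12 CPM. Only TP-472 replicate 4 lay within the range of the vehicle libraries. CHAC1 had a log2 fold change of 0.33 (SE 0.146, adjusted p = 0.106, and p = 0.0857 in a two-sided exact permutation test). Without vehicle replicate 3 it was 0.39 (adjusted p = 0.0199), under the limit on the fold change in both fits. CHAC1 passed both limits with all 8 libraries (0.69, adjusted p = 0.0149) once the trend of each library with GC content was removed.

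DDIT4 (ENSG00000168209.5; chromosome 10 from 72273920 to 72276036) encodes REDD1, an inhibitor of mTORC1 that is also induced by hypoxia and glucocorticoids. It had 106, 127, 180 and 135 CPM in vehicle replicates 1 to 4 and 135, 143, 139 and 109 CPM in TP-472 replicates 1 to 4. All TP-472 libraries lay within the range of the vehicle libraries. DDIT4 had a log2 fold change of −0.06 (SE 0.168, adjusted p = 0.794), and 0.10 without vehicle replicate 3 (adjusted p = 0.475). With all libraries it was 0.3 (adjusted p = 0.066) once the trend of each library with GC content was removed.

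Of the 3 amino acid enzymes, ASNS and PSAT1 were low in vehicle replicate 3 and PHGDH was high. ASNS (ENSG00000070669.17; chromosome 7 from 97852118 to 97872542), asparagine synthetase and the best-studied target of the element shown above, had 82.4, 87.7, 50.6 and 85.9 CPM in vehicle replicates 1 to 4 and 83.7, 87.0, 87.4 and 82.9 CPM in TP-472 replicates 1 to 4. Apart from vehicle replicate 3, which was low, all libraries lay within the same narrow range. Its log2 fold change was 0.15 with all libraries (SE 0.168, adjusted p = 0.491) and 0.00 without vehicle replicate 3 (SE 0.0548, adjusted p = 0.953). A gene that overlaps ASNS on the same strand, AC079781.5, held 172.9 to 245.5 counts per library against 1749 to 3057 for ASNS in vehicle-treated cells, and reads of the shared part could have been divided between them.

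PSAT1 (ENSG00000135069.14; chromosome 9 from 78297143 to 78330093), which catalyzes the second step of serine synthesis, had 117, 127, 83.7 and 129 CPM in vehicle replicates 1 to 4. TP-472 replicates 1 to 4 had 120, 119, 126 and 119 CPM. Again vehicle replicate 3 alone stood below the rest. PSAT1 had a log2 fold change of 0.09 (SE 0.141, adjusted p = 0.651), and −0.04 without vehicle replicate 3 (adjusted p = 0.576). The 11 listed pseudogenes of ATF4, ASNS and PSAT1 had at most 9 counts in any library.

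PHGDH (ENSG00000092621.12; chromosome 1 from 119648411 to 119744226), the enzyme of the first step of serine synthesis, was measured at 191, 187, 247 and 189 CPM in vehicle replicates 1 to 4 and 151, 165, 161 and 142 CPM in TP-472 replicates 1 to 4. Here every TP-472 library lay below every vehicle library, the opposite order to ATF4 and DDIT3. PHGDH averaged 203 ± 29.4 CPM with vehicle and 155 ± 10.5 CPM with TP-472 (SD, 4 libraries each). Its log2 fold change was −0.39 (SE 0.122, adjusted p = 0.0340; two-sided exact permutation test, p = 0.0286), under the limit on the fold change, and −0.29 without vehicle replicate 3 (adjusted p = 0.00455).

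In the fit without vehicle replicate 3, DDIT3, TRIB3 and SESN2 were differentially expressed and higher with TP-472, which makes 3 of 10. Of the 14217 genes tested in that fit, 25.9% were differentially expressed (12.4% higher and 13.5% lower). Under the adjusted p-value alone 6 of the 10 passed, against 57.1% of the genes tested. Groups did not overlap for 5 of the 10 genes, against 58.5% of the genes tested. The plot of log2 fold changes sets both fits side by side.

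**Figure D2:**
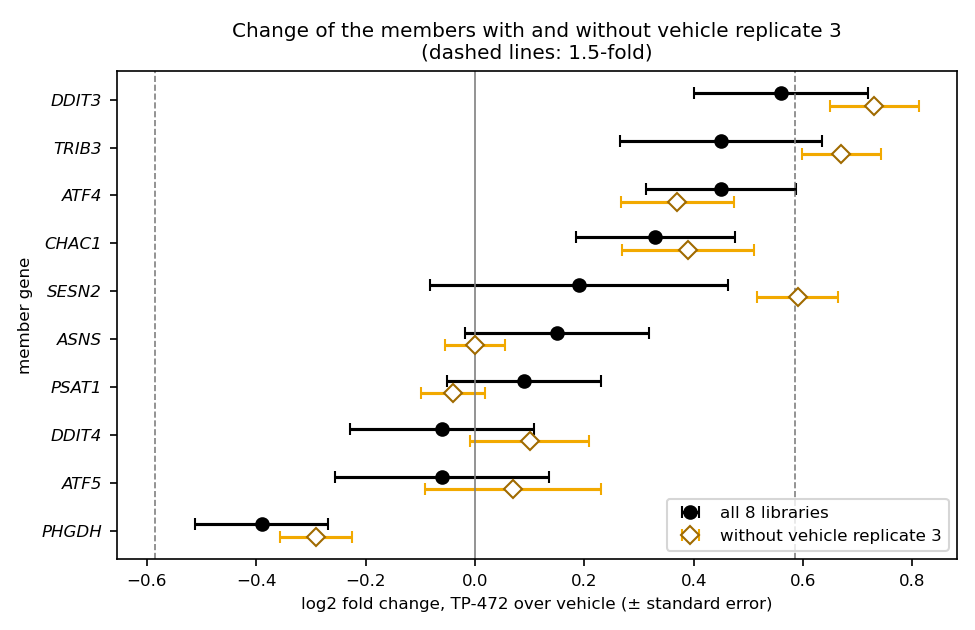
Log2 fold change of TP-472 over vehicle (horizontal axis) for each gene with its standard error, from all 8 libraries (circles) and without vehicle replicate 3 (diamonds); dashed lines mark a 1.5-fold change. Between the plotted fits, DDIT3, TRIB3 and SESN2 pass the line only in the one without that library, at 0.73, 0.67 and 0.59. ATF4 and PHGDH stay inside the lines in both.

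Levels of different genes were compared as CPM per kilobase of merged exons in GENCODE release 29. In vehicle-treated cells ATF4 was the most abundant, at 88.0 ± 14.7 CPM per kilobase (SD, n = 4), followed by DDIT4 at 66.6 ± 15.1 and PSAT1 at 52.2 ± 9.56, each overlapping its neighbor between libraries. PHGDH at 22.1 ± 3.19 came next and overlapped neither PSAT1 above it nor ASNS below it, but its libraries (20.2 to 26.8) overlapped those of DDIT3 (14.5 to 22.2). ASNS, DDIT3, SESN2 and TRIB3 followed between 17.2 and 9.28, each overlapping the next, and CHAC1 at 5.26 ± 0.82 and ATF5 at 3.05 ± 0.728 were the lowest and did not overlap. In TP-472-treated cells ATF4, at 120 ± 9.16 CPM per kilobase, no longer overlapped DDIT4 at 63.8 ± 7.36, and DDIT3 at 24.6 ± 2.19 was above ASNS at 19.1 ± 0.519 and PHGDH at 16.8 ± 1.14. The ends of the order were the same in both groups.

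Vehicle replicate 3 was the highest vehicle library for 7 of the 10 genes and the lowest for ATF4, ASNS and PSAT1. It was the highest or lowest vehicle library for 86.9% of all genes tested, so that the genes examined here share this with most of the transcriptome. Its deviation also moved with the GC content of transcripts. Relative to the other vehicle libraries its median log2 deviation was −0.7 over the lowest quartile of tested genes by GC content and 0.92 over the highest (3493 genes each). The same medians lay between −0.34 and 0.28 in the other vehicle libraries and between −0.13 and 0.08 in the TP-472 libraries, each against the rest of its group. ASNS and PSAT1, with transcripts of 44.6% and 43.7% GC, were 0.593 and 0.673 times the mean of the other vehicle libraries in vehicle replicate 3. TRIB3 and SESN2, with 61.7% and 59.5% GC, were 1.67 and 2.28 times that mean. ATF4 was at 0.784 times the mean with 55.3% GC, and CHAC1, with the highest GC content of 62.6%, was at 1.19 times. When the trend of each library with GC content was removed, TRIB3 (log2 fold change 0.86, adjusted p = 3.74e-05) and CHAC1 (0.69, adjusted p = 0.0149) passed the threshold with all 8 libraries (2 of the 10, against 28.2% of all genes in that fit), and the value of ATF4 was 0.55 (adjusted p = 0.0350). This correction acts on every library and not only on vehicle replicate 3. A trend with GC content that differs between the groups is therefore removed as well. The cause of the deviation of vehicle replicate 3 was not tested.

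**Figure D3:**
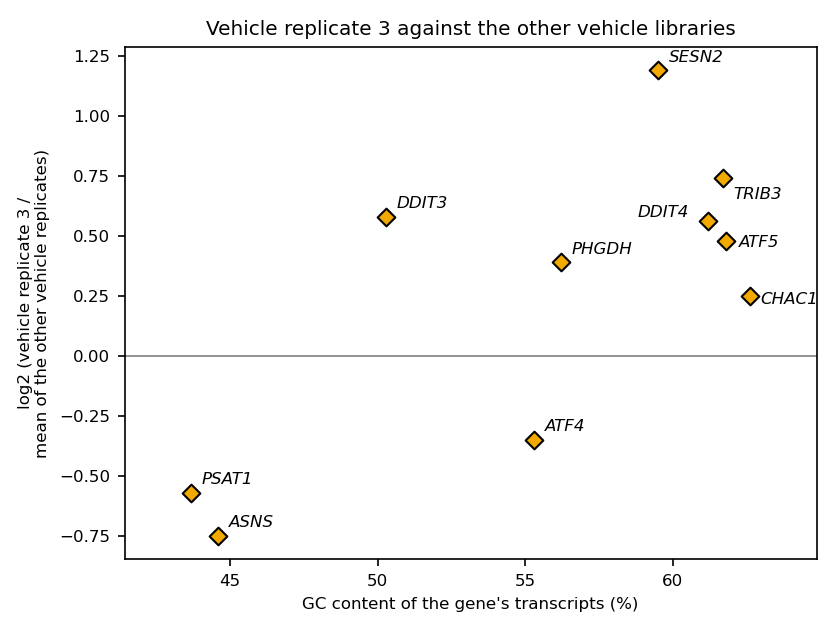
Log2 ratio of vehicle replicate 3 to the mean of the other 3 vehicle libraries (vertical axis) against the GC content of each gene's transcripts in percent (horizontal axis), with 1 diamond per gene. PSAT1 and ASNS, with the lowest GC content, are also lowest at −0.57 and −0.75, and SESN2 is highest at 1.19.

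Of the 4 kinases that phosphorylate eIF2, 2 fell and 0 rose with TP-472, with a median log2 fold change of −0.44. Counts of this and the following lists stand beside the 12% of all genes tested that rose and the 14.9% that fell. EIF2AK2, the kinase PKR that senses double-stranded RNA and is itself induced by interferon, had 373, 308, 288 and 292 CPM in vehicle replicates 1 to 4 and 147, 137, 147 and 171 CPM in TP-472 replicates 1 to 4. The groups lay far apart, and the log2 fold change was −1.07 (SE 0.124, adjusted p = 4.67e-04). EIF2AK1, the heme-regulated kinase HRI, fell from a mean of 149 ± 10.3 CPM to 97.5 ± 7.28 CPM (SD, 4 libraries each; log2 fold change −0.61, adjusted p = 0.00231). Without vehicle replicate 3 the values were −1.11 for EIF2AK2 and −0.63 for EIF2AK1. EIF2AK1 fell short of the limit on the fold change (−0.57) without vehicle replicate 1 and without TP-472 replicate 2. EIF2AK4, the amino acid sensor GCN2, did not pass the limit on the fold change at −0.27 (adjusted p = 0.0339), and EIF2AK3, the ER stress sensor PERK, was at 0.14 (adjusted p = 0.491). These are levels of mRNA and not of kinase activity.

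Of 5 genes for subunits of the phosphatase that reverses this step, 0 were differentially expressed in edgeR's test, 0 passed at an unadjusted p-value under 0.05, and DESeq2 and limma-voom called 0. PPP1R15A, the stress-induced subunit GADD34 and itself an ATF4 target, had a log2 fold change of 0.08 (adjusted p = 0.643), PPP1R15B 0.08 (adjusted p = 0.548), PPP1CA 0.08 (adjusted p = 0.667), PPP1CB 0.04 (adjusted p = 0.913) and PPP1CC 0.40 (adjusted p = 0.148). PPP1CC showed no overlap between the groups (188 to 380 CPM with vehicle, 409 to 426 CPM with TP-472). In the fit that left out vehicle replicate 3, 0 of the 5 passed both limits. By adjusted p-value alone 2 passed there, against 57.1% of the genes tested, PPP1CC at 0.21 (adjusted p = 0.0241) and PPP1CB, with its sign turned, at −0.18 (adjusted p = 0.0338).

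Genes of eIF2 itself and of its exchange factor eIF2B were all above zero in log2 fold change (8 of 8, median 0.44), as were 6780 of the 14073 genes tested. Of these, 2 rose and 0 fell. EIF2S1, the subunit that is phosphorylated, had 148, 181, 80.5 and 176 CPM in vehicle replicates 1 to 4 and 253, 276, 280 and 255 CPM in TP-472 replicates 1 to 4. Vehicle replicate 3 was the lowest, and no library of one group reached the other. EIF2S1 rose by 0.87 on the log2 scale (adjusted p = 0.0180), and by 0.66 without vehicle replicate 3 (adjusted p = 1.46e-04). EIF2B2, a regulatory subunit of eIF2B, rose from a mean of 32.6 ± 3.64 CPM to 54.4 ± 1.11 CPM (SD, 4 libraries each; log2 fold change 0.74, adjusted p = 0.00130). By adjusted p-value alone, 6 of the 8 genes were higher, against 17.2% of all genes tested. The call of EIF2S1 was lost without TP-472 replicate 2 (adjusted p = 0.0502) or 3 (adjusted p = 0.0515).

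Among 12 genes for bZIP partners of ATF4 and related factors, 1 rose and 4 fell. ATF3, a stress-induced factor downstream of ATF4 and of several other pathways, had 6.71, 5.66, 7.35 and 7.28 CPM in vehicle replicates 1 to 4 and 21.7, 22.9, 20.1 and 19.6 CPM in TP-472 replicates 1 to 4. All TP-472 libraries were well above all vehicle libraries (log2 fold change 1.64, SE 0.130, adjusted p = 8.38e-05). The genes that fell were CREB3L2 (log2 fold change −1.27), an ER membrane factor, ATF6B (−1.11), JDP2 (−1.11), a repressor of AP-1 and ATF factors, and CEBPD (−0.95). Without vehicle replicate 3, which was 2.23 and 2.12 times the mean of the other vehicle libraries for ATF6B and JDP2, the values were −0.73 for ATF6B, −0.75 for JDP2 and −1.03 for CREB3L2. CEBPD did not pass the limit on the fold change without vehicle replicate 3 (−0.51), and lost its call without any 1 of the TP-472 libraries (adjusted p = 0.08 to 0.104). It was not called by limma-voom (−0.84, adjusted p = 0.0585), with quality weights (−0.58, under the limit on the fold change) or with the GC correction (−0.31, adjusted p = 0.081). CEBPB, a partner of ATF4 on the response element, was at 0.58 with all libraries (adjusted p = 0.0727) and rose by 0.86 without vehicle replicate 3 (adjusted p = 1.49e-04). With all 8 libraries CEBPB was also called by DESeq2 (0.59, adjusted p = 0.0404), limma-voom (0.64, adjusted p = 0.0448), limma-voom with quality weights (0.81, adjusted p = 8.45e-06) and with the GC correction (1.1, adjusted p = 0.000238). The paper lists CEBPB among its differentially expressed hub genes, higher with TP-472, whereas the main test here did not call it. CEBPD was named after its value was seen, to complete the count, and CEBPB because it crossed the threshold.

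Of 10 genes of serine, glycine and folate-linked carbon metabolism, which draw on the products of PHGDH and PSAT1, 1 rose and 2 fell. MTHFD2L, a mitochondrial folate enzyme, rose from a mean of 28.7 ± 10.4 CPM to 51.4 ± 2.71 CPM (SD, 4 libraries each; log2 fold change 0.84, adjusted p = 0.0360, and 0.60 without vehicle replicate 3). Its call was lost without vehicle replicate 1 and without any 1 of the TP-472 libraries (adjusted p = 0.0699 to 0.0838), which left 0 risen genes in the list. ALDH1L2, a mitochondrial folate enzyme reported as an ATF4 target, had 27.9, 21.4, 20.9 and 20.7 CPM in vehicle replicates 1 to 4 and 11.9, 11.1, 10.7 and 15.1 CPM in TP-472 replicates 1 to 4. Its groups were separate (log2 fold change −0.90; adjusted p = 0.00332), and its cytosolic relative ALDH1L1 fell by 1.22 from a low mean of 1.46 ± 0.236 CPM with vehicle (SD, 4 libraries). PSPH, the last enzyme of serine synthesis, had a log2 fold change of 0.11 (adjusted p = 0.491) and was named after its value was seen, as the remaining step of the pathway.

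Among 10 other amino acid enzymes reported as ATF4 targets, 0 rose and 2 fell. PCK2, the mitochondrial PEP carboxykinase, had 54.5, 52, 66.7 and 55.9 CPM in vehicle replicates 1 to 4 and 23.3, 25.1, 24.9 and 17.4 CPM in TP-472 replicates 1 to 4. No vehicle library came near a TP-472 library, and the log2 fold change was −1.34 (SE 0.147, adjusted p = 3.79e-04). CBS, the first enzyme of cysteine synthesis from homocysteine, fell by 1.21 on the log2 scale (adjusted p = 0.0116), and by 0.83 without vehicle replicate 3.

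Of 9 amino acid transporter genes, 0 rose and 2 fell. SLC6A9, the glycine transporter GLYT1, fell from a mean of 17.4 ± 6.76 CPM to 5 ± 0.76 CPM (SD, 4 libraries each; log2 fold change −1.8, adjusted p = 0.00123). SLC38A2, the glutamine and alanine transporter SNAT2, had 1510, 1670, 649 and 1640 CPM in vehicle replicates 1 to 4 and 787, 785, 792 and 837 CPM in TP-472 replicates 1 to 4. Vehicle replicate 3 was below the TP-472 libraries and the other vehicle libraries were far above them. Its log2 fold change was −0.77 (adjusted p = 0.0478), and −1.01 without vehicle replicate 3 (adjusted p = 5.53e-06). With any 1 of the other 7 libraries left out its call was lost (adjusted p = 0.093 to 0.11). When the trend with GC content was removed, 2 transporters were higher, SLC3A2 (0.61, adjusted p = 0.000137) and SLC1A5 (0.7, adjusted p = 0.000115), and 2 were lower. In the fit without vehicle replicate 3, 0 of the 9 rose and 2 fell. By adjusted p-value alone 4 were higher and 4 lower there, against 57.1% of the genes tested in either direction. SLC3A2, SLC1A5 and SLC38A2 were named after their values were seen, to complete the counts.

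Of 12 tRNA synthetase genes, 1 rose (TARS1, threonyl-tRNA synthetase, log2 fold change 0.71, adjusted p = 0.0237) and 0 fell. Without vehicle replicate 3 the value of TARS1 was 0.53 (adjusted p = 3.58e-04), under the limit on the fold change, and 0 of the 12 were differentially expressed; the count was also 0 without vehicle replicate 1 or without TP-472 replicate 1, 2 or 3.

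Among 15 further genes reported as ATF4 targets, 12 passed the filter, of which 3 rose and 3 fell. CDKN1A, the cell cycle inhibitor p21, rose by 2.44 (adjusted p = 2.06e-05), STC2, a secreted glycoprotein, by 0.87 (adjusted p = 0.00532) and NDRG1, a stress- and hypoxia-induced gene, by 0.73 (adjusted p = 0.00141). ADM2, a peptide hormone of the calcitonin family, averaged 8.2 ± 7.45 CPM with vehicle and 2.46 ± 0.401 CPM with TP-472 (SD, 4 libraries each), and the size of its fall rested on vehicle replicate 3 (log2 fold change −1.73 with it and −0.87 without it). The call of ADM2 was lost without any 1 of the TP-472 libraries (adjusted p = 0.0585 to 0.0816), which left 2 fallen genes. NUPR1, a stress-induced chromatin protein, fell by 1.72 (adjusted p = 0.00218) from a mean of 1.5 ± 0.455 CPM with vehicle (SD, 4 libraries). KLHL24, an adaptor of the CUL3 ubiquitin ligase, fell by 0.83 (adjusted p = 0.0147). FGF21, GDF15 and INHBE, secreted factors known for their induction in this response, had at most 6, 29 and 14 counts in any library. They did not pass the filter of the main test.

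The ER stress branches that do not run through ATF4 were followed with 12 chaperone genes of the ATF6 and XBP1 arms, of which 2 rose and 0 fell. MANF, an ER-resident survival factor, rose by 0.71 (adjusted p = 0.00498) and SDF2L1, a chaperone cofactor, by 0.64 (adjusted p = 0.00989, and 0.58 without vehicle replicate 3, under the limit on the fold change, as it was without TP-472 replicate 3). HSPA5, the main ER chaperone BiP and the usual reporter of ER stress, averaged 271 ± 62.3 CPM with vehicle and 283 ± 31.1 CPM with TP-472 (SD, 4 libraries each; log2 fold change 0.07, adjusted p = 0.781), and was named after its value was seen.

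Of 7 paralogues of the 10 genes, 6 passed the filter, and 3 rose and 2 fell. TRIB1, a pseudokinase like TRIB3, rose from a mean of 5.9 ± 1.24 CPM to 16.8 ± 1.4 CPM (SD, 4 libraries each; log2 fold change 1.51, adjusted p = 3.72e-04). CHAC2, like CHAC1 a glutathione-degrading enzyme, had 13.1, 17.6, 6.05 and 17.8 CPM in vehicle replicates 1 to 4 and 31.9, 32.3, 33.8 and 29.8 CPM in TP-472 replicates 1 to 4. Its groups were far apart (log2 fold change 1.23, adjusted p = 0.0120, and 0.98 without vehicle replicate 3). ASNSD1, which resembles asparagine synthetase, rose by 0.88 (adjusted p = 0.0102). DDIT4L, a relative of the mTORC1 inhibitor DDIT4, had 248, 290, 146 and 289 CPM in vehicle replicates 1 to 4 and 116, 115, 121 and 105 CPM in TP-472 replicates 1 to 4. Every TP-472 library was lower (log2 fold change −1.09, adjusted p = 0.00418), and SESN3, a relative of SESN2, fell by 0.87 (adjusted p = 0.00670). Whether these changes differ from those of TRIB3, CHAC1, ASNS, DDIT4 and SESN2 was not tested. TRIB2 did not pass the filter of the main test, with 0 to 5 counts in vehicle and 7 to 10 in TP-472 libraries.

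Over the 104 genes of these lists together, 100 passed the filter, 13 rose and 17 fell, against 12% and 14.9% of all genes tested. Their median log2 fold change was 0.14. By adjusted p-value alone 29 were higher and 22 lower, against 17.2% and 19.1% of all genes tested, and 59 passed at an unadjusted p-value under 0.05, against 47.8%. The log2 fold change was above zero for 63 of the 100, and for 6780 of the 14073 genes tested.

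**Figure D4:**
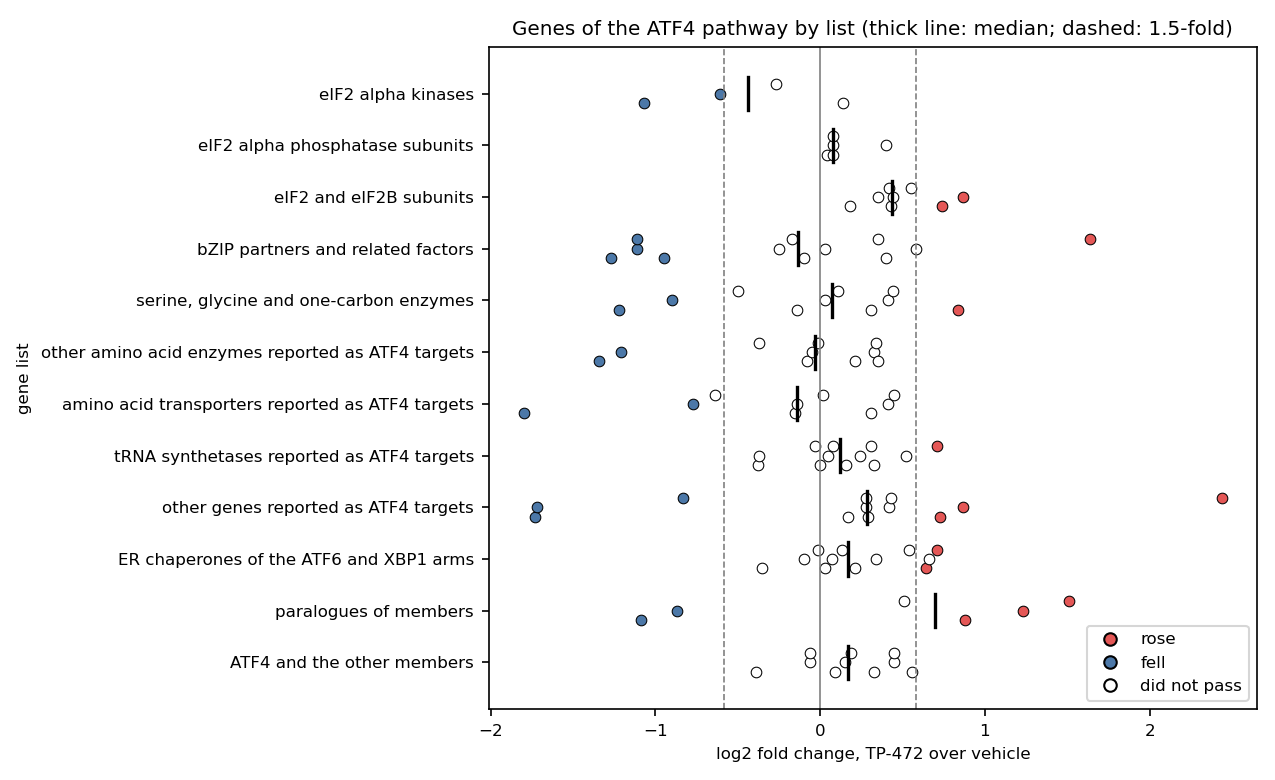
Log2 fold change of TP-472 over vehicle (horizontal axis) for each tested gene of the lists (rows) and of the 10 genes in the bottom row, with filled points for genes that rose or fell, open points for those that did not pass, a thick line at the median and dashed lines at 1.5-fold. All points of the bottom row are open and lie between −0.39 and 0.56, while other lists reach from −1.8 to 2.44.

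The genes whose pattern over the 8 libraries was nearest to that of ATF4 were found by the root mean square difference of log2 CPM, with each gene centered on its own mean, with 11077 tested genes averaging 5 CPM or more as candidates. They were IDH3B (0.0281), a subunit of mitochondrial isocitrate dehydrogenase, MRPL18 (0.0319), a mitochondrial ribosomal protein, and ALYREF (0.0398), an mRNA export adaptor. Like ATF4, they were lowest in vehicle replicate 3 and had log2 fold changes of 0.49, 0.41 and 0.46. Of the other genes examined here, CHAC1 (0.205) and ASNS (0.212) came nearest, at ranks 1827 and 1980, and PHGDH was the farthest at rank 7511. Without vehicle replicate 3 the nearest genes were MRPS33, MRPS28 and H3-3B, and IDH3B, MRPL18 and ALYREF were at ranks 9, 17 and 30. CHAC1 then came to rank 149, DDIT4 to 2033 and SESN2 to 2171, and ASNS moved away to rank 3932.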

How the data were processed

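RNA of SK-UT-1 cells was measured in 4 libraries per group (vehicle, TP-472). The deposited values are estimated counts per gene: the authors prepared strand-specific libraries, quantified reads with Salmon 1.4.0 (submitters' processing notes, build GRCh38), and summed transcripts to GENCODE genes with tximport, without normalization or filter. Counts were rounded, filtered (more than 1 CPM in at least 4 libraries, 14073 genes) and TMM-scaled. edgeR 4.0.16 (R 4.3.3) quasi-likelihood tests compared the groups, with a fold change limit of 1.5 and an adjusted p-value limit of 0.05, as the paper gives them. Standard errors are the log2 fold change divided by the root of the F statistic. Exact permutation tests used all 70 assignments on log2 CPM (prior count 2). Alternatives were DESeq2 1.42.0, limma 3.58.1, and other scalings, filters, thresholds, blocks and left-out libraries. Positions, exon lengths and GC content (99.3% of tested genes) come from GENCODE release 29, joined by identifier without its version. Named in addition to the 10 genes were all genes of lists with up to 5 tested genes, up to 3 risen and 3 fallen genes without overlap of longer lists, the 3 genes nearest to ATF4 and the cell type markers; other names are marked where they occur. The members and lists were chosen with earlier results of these data known. Calculations were tested on simulated data. Genes with few counts, such as NUPR1 (14 to 21 per TP-472 library) and ALDH1L1 (21 to 25), also carry counting error. No library was a copy of another (lowest mean chi-square 12.8, near 1 for copies).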

Additional observations from a re-analysis of the deposited data

Results flagged for a closer look

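Of 22 groups of 4 values examined (both groups for each of the 10 genes and for the library totals), 4 held a library far from the others by Dixon's test, where chance gives about 1 in 20 for any single group. All 4 were vehicle replicate 3, which was the highest or lowest vehicle library for 86.9% of all genes tested. That library was already known to stand apart. The genes share their libraries, so the 22 groups are not independent and the count of 4 cannot be set against that rate. DDIT3 was at 29 CPM there, PHGDH at 247 CPM and SESN2 at 63.1 CPM, each above the other vehicle libraries, and ASNS was at 50.6 CPM, below them. For each of these genes the other 3 vehicle libraries lay close together.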

How the results depend on the processing

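ATF4 and PHGDH kept their direction and were not called in any fit run with the limit on the fold change, with log2 fold changes of 0.31 to 0.6 and −0.43 to −0.21. Their adjusted p-values crossed 0.05 in several fits (up to 0.0881 and 0.0909), and ATF4 passed the limit on the fold change once, with block and GC correction (0.6, adjusted p = 0.0522). Genes that passed the threshold under other settings were DDIT3 (0.76), TRIB3 (0.67) and SESN2 (0.62) with limma-voom quality weights, TRIB3 (0.86) and CHAC1 (0.69) with a GC correction, and TRIB3 (0.86), CHAC1 (0.73) and SESN2 (0.59) with the replicate block and GC correction. Small values changed sign: ATF5 (0.31 with the GC correction, 0.33 with block and GC correction), DDIT4 (0.06 with quality weights, 0.30 and 0.31 with the GC correction without and with the block), ASNS (−0.01 with quality weights) and PSAT1 (−0.07 with quality weights, −0.05 with the GC correction, with or without the block). With any 1 library left out, the log2 fold change ran from 0.37 to 0.52 for ATF4, −0.21 to 0.07 for ATF5, 0.50 to 0.73 for DDIT3, −0.17 to 0.10 for DDIT4, 0.00 to 0.22 for ASNS, 0.35 to 0.67 for TRIB3, 0.23 to 0.39 for CHAC1, −0.04 to 0.15 for PSAT1, −0.43 to −0.29 for PHGDH and 0.07 to 0.59 for SESN2. The causes were not tested.

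Of the 10 genes, 3 were called with quality weights, 2 with the GC correction and 3 with block and GC correction (against 24.8%, 28.2% and 26.4% of all genes tested), 3 without a limit on the fold change, and 0 to 3 with a library left out (3 without vehicle replicate 3, against 25.9% of all genes tested in that fit, and 1 without TP-472 replicate 4, against 21.8%). Among all genes tested, 1704 were called at a fold change over 2 and 2744 to 4322 with a library left out. Without a limit on the fold change 6 eIF2 and eIF2B genes, 6 serine and folate genes, 4 other amino acid enzymes, 4 transporters, 4 tRNA synthetases and 4 ER chaperones were called. At a fold change over 2 the counts were 1 kinase, 0 eIF2 and eIF2B genes, 1 serine and folate gene, 1 transporter, 0 synthetases, 3 other targets, 0 chaperones and 3 paralogues. Quality weights gave 0 synthetases and 1 chaperone, limma-voom gave 1 transporter, and the GC correction gave 4 transporters (2 higher and 2 lower), with or without the block. ADM2 was not called by limma-voom or with the replicate block, nor MTHFD2L with quality weights. Of the bZIP genes, quality weights, limma-voom and the GC correction each gained CEBPB and lost CEBPD. With a library left out, 1 to 2 kinases, 1 to 2 eIF2 and eIF2B genes, 1 to 2 transporters, 0 to 1 synthetases and 1 to 3 chaperones were called. The median log2 fold change of all genes was 0.128 with DESeq2 and 0.120 without a filter, both of which take in more low genes.

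Same-numbered libraries did not deviate together (correlations −0.0554, 0.116, −0.171 and −0.177 for numbers 1 to 4), so the numbers were not taken as pairs. Between libraries of different numbers the correlations ran from −0.299 (vehicle replicate 1 with TP-472 replicate 2) to 0.398 (vehicle replicate 1 with TP-472 replicate 4). With the replicate block, 3055 of all genes tested were called, 0 of the 10 genes and 1 transporter.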
